A study of Homo sapiens with 4 samples.

Results

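Aminoacyl-tRNA synthetases and the cytosolic translation factors were examined in ES-2, a human ovarian cancer cell line with an endogenous YAP1-MAML2 (YM) fusion. The genes were chosen by symbol alone: the synthetases of either compartment, the scaffold proteins AIMP1 and AIMP2, and every gene named EIF1 to EIF6, EEF1 or EEF2, leaving out the eIF2 kinases, the eIF4E-binding proteins and hyphenated read-through genes. This rule took 103 of the 19626 genes in the tables, of which 99 passed the filter on low values and were tested. EIF1AY, EIF4E3, EEF1DP3 and EIF3IP1 did not reach an RPKM (reads scaled to gene length and to mapped reads) above 1 in any library.

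Libraries came from ES-2 cells infected with a lentivirus for a control shRNA (shCtl, n = 2) or for shM2-3, an shRNA that targets MAML2 sequence shared by the native gene and the fusion (n = 2), and the question was what depletion of YM and MAML2 does to the transcriptome. The cells were collected 96 h after the first of their infections of 8 h per the labels, whereas the methods of the study give a shorter time. All 4 cultures carried the endogenous fusion before infection, all came from 1 cell line, and a single shRNA was used, so effects of the fusion, of native MAML2 and of that shRNA cannot be told apart. MAML2 was 8.61 and 8.26 RPKM in shCtl cells and 3.11 and 3.0 RPKM in shM2-3 cells, a log2 fold change of -1.40 (SE 0.069). Totals ran from 20051083 to 23978660 counts per library. Of the 8 markers of ovarian clear cell carcinoma, 5 (among them NAPSA, PAX8, EPCAM and CDH1) stayed under 1 RPKM in every library. The keratins KRT7, KRT8 and KRT18 were present, and the summed level of the list was 637 RPKM in each shCtl library against 313 and 316 RPKM in the shM2-3 libraries. Of the 6 fibroblast markers only PDGFRA passed 1 RPKM (7.58 and 7.51 in shCtl, 25.2 and 24.8 in shM2-3), and of the 7 leukocyte markers only CD68 and LYZ did, with list sums of 57.5 to 58.5 RPKM in shCtl and 40.0 to 41.1 RPKM in shM2-3. The part of these shifts in the results was not tested. In such bulk libraries less RNA per cell and fewer cells of a type cannot be told apart.

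Synthetases charge each tRNA with its amino acid, with largely but not fully separate gene sets serving the cytosol and the mitochondria. Several cytosolic enzymes sit together in a multisynthetase complex held by AIMP1, AIMP2 and EEF1E1. Initiation factors bring the initiator tRNA, the small ribosomal subunit and the capped mRNA together, and elongation factors deliver charged tRNAs and move the ribosome along. Growing tumour cells depend on these genes, and several synthetase genes are known targets of the stress-induced transcription factor ATF4.

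The tested genes were lower in shM2-3 cells more often than higher. With edgeR's quasi-likelihood test at an adjusted p of at most 0.05, 53 of 99 were lower and 21 were higher, and 25 did not pass. Across all 12157 genes tested, 36.4% were lower and 36.3% higher by the same rule. The median log2 fold change (shM2-3 over shCtl) was -0.24 for the 99 genes and -0.004 for all genes. Adding a fold change of at least 1.5, 23 were lower and 3 (EIF5, EIF4E2 and EIF4G3) higher, against 18.9% and 18.9% of all genes. Adding the 2-fold limit of the study, 5 were lower (among them VARS1, FARSB, EIF3CL and EIF5AL1) against 8.93% of all genes, and 0 were higher against 9.24%. DESeq2 also gave 0 higher genes at 2-fold, while 21 were higher at an unadjusted edgeR p under 0.05. All 103 genes of the set, tested or not, took 4.27% and 4.22% of all counts in the shCtl libraries and 4.0% and 4.06% in the shM2-3 libraries.

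**Figure D1:**
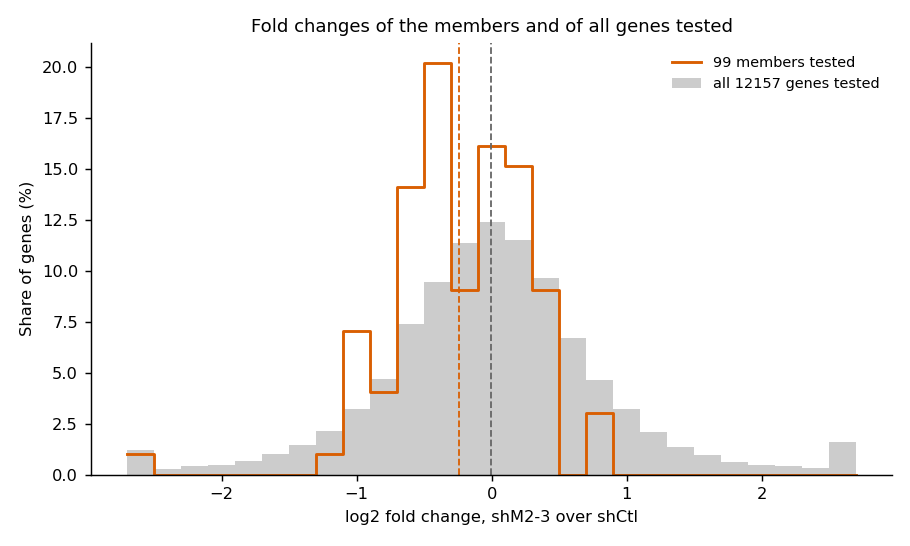
Share of genes (%) in bins of log2 fold change, shM2-3 over shCtl, for all 12157 genes tested (grey bars) and the 99 synthetase and factor genes (orange line), with values beyond the axis put in the outermost bins. Dashed lines mark the medians of -0.004 and -0.24, and the orange line has few genes above 0.5.

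Among the 20 cytosolic synthetases, 12 were lower, 4 higher and 4 did not pass the test, with a median log2 fold change of -0.30. The shares of all genes tested were 36.4% lower and 36.3% higher. VARS1 and FARSB were among the 3 cytosolic synthetases with a fall of 2-fold or more, against 8.93% of all genes. VARS1, the valine enzyme (chr6:31777518-31795752, minus strand, hg38), was 50.7 and 47.9 RPKM in shCtl cells and 20.5 and 21.8 RPKM in shM2-3 cells. Both knockdown libraries lay below both controls, and the log2 fold change was -1.15 (SE 0.050, edgeR adjusted p = 1.49e-10). FARSB, the beta subunit of the phenylalanine enzyme (chr2:222566899-222656092, minus strand), was 11.4 and 12 RPKM in shCtl and 5.02 and 5.45 RPKM in shM2-3, a log2 fold change of -1.09 (SE 0.063). VARS1 and FARSB passed the 2-fold limit in all 10 alternative fits.

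A further 5 cytosolic enzymes fell by smaller amounts. KARS1, which makes the lysine enzyme of both compartments, was 90.7 and 91.2 RPKM in shCtl and 52.0 and 57.2 RPKM in shM2-3. EPRS1, the fused glutamate and proline enzyme, was 83.9 and 80.4 RPKM in shCtl and 49.5 and 50.2 RPKM in shM2-3. RARS1 (arginine) and LARS1 (leucine) fell by 0.64 and 0.58 on the log2 scale. FARSA, the alpha subunit that pairs with FARSB, was 53.3 and 53.6 RPKM in shCtl and 34.1 and 34.4 RPKM in shM2-3. Both subunits fell, and the ratio of FARSB to FARSA RPKM went from 0.213 and 0.223 to 0.147 and 0.158 without overlap. GARS1, YARS1, TARS1 and AARS1 (glycine, tyrosine, threonine and alanine) fell by 0.38, 0.36, 0.24 and 0.21 on the log2 scale.

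Not every cytosolic enzyme was lower. WARS1, the tryptophan enzyme known to be induced by interferon, was 25.7 and 27.1 RPKM in shCtl and 34.5 and 34.6 RPKM in shM2-3, a log2 fold change of 0.45 (SE 0.050). QARS1, the glutamine enzyme, was 78.5 and 77.6 RPKM in shCtl and 97.2 and 100 RPKM in shM2-3, a log2 fold change of 0.41 (SE 0.042). Both shM2-3 libraries lay above both controls for these 2 genes. CARS1 (cysteine) and HARS1 (histidine) rose by less, with log2 fold changes of 0.30 and 0.18. The HARS1 call was lost in 6 of the 10 alternative fits, among them those without shCtl replicate 1 or shM2-3 replicate 2 (log2 fold changes from 0.11 to 0.20 over the alternatives), and its exons overlap those of HARS2. SARS1, NARS1, IARS1 and MARS1 (serine, asparagine, isoleucine and methionine) had log2 fold changes of -0.08, -0.06, -0.06 and 0.02 and did not pass. The exons of MARS1 overlap those of DDIT3.

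**Figure D2:**
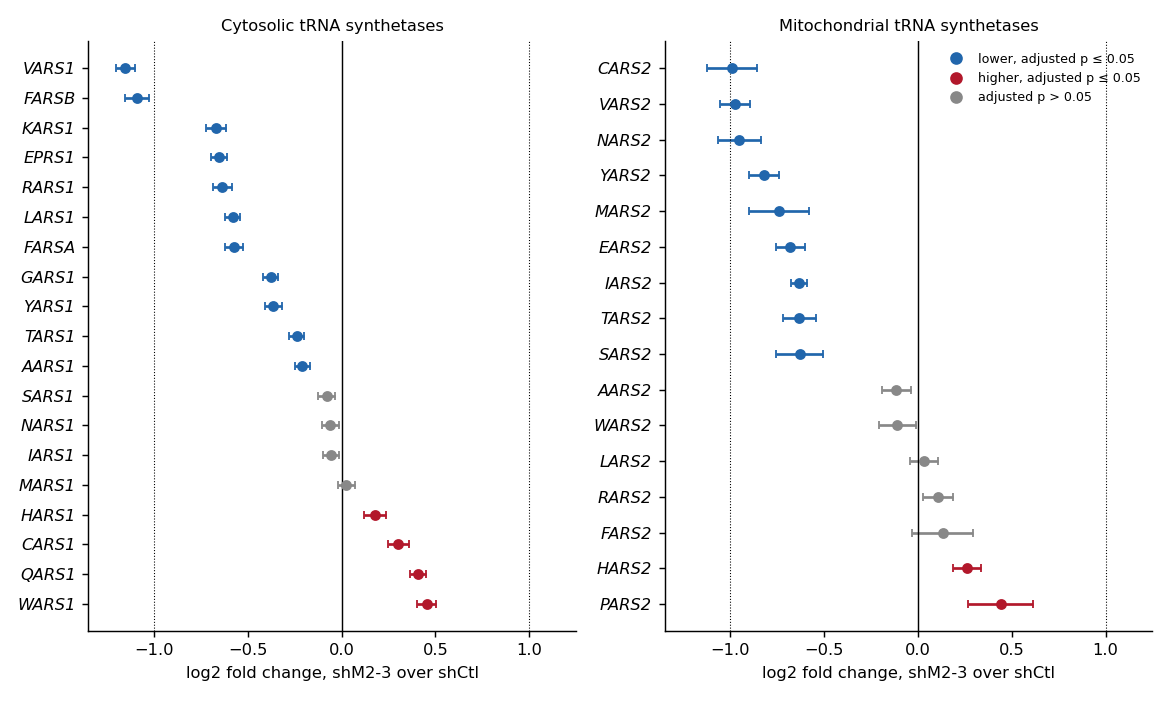
Log2 fold change (shM2-3 over shCtl, points) and SE (bars) of the cytosolic and mitochondrial synthetases described, in order of size, coloured by direction where the edgeR adjusted p was at most 0.05. VARS1 and FARSB lie left of the dotted 2-fold line, and the mitochondrial enzymes split into a group from -0.99 (CARS2) to -0.63 (SARS2) and a group from -0.12 (AARS2) to 0.44 (PARS2).

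The multisynthetase complex did not move as a block. Of its 11 genes, 7 were lower, QARS1 and AIMP2 were higher, and IARS1 and MARS1 did not pass. The shares of all genes tested were 36.4% lower and 36.3% higher. The median log2 fold change of the 11 was -0.40, with 0.41 for QARS1 (the highest) and -0.67 for KARS1 (not the lowest). The median of the 12 cytosolic synthetases outside the complex was -0.23. The scaffold genes themselves went in opposite directions. AIMP1 was 12.6 and 11.9 RPKM in shCtl and 9.20 and 8.56 RPKM in shM2-3, a log2 fold change of -0.40 (SE 0.072). AIMP2 was 7.79 and 7.34 RPKM in shCtl and 9.36 and 9.55 RPKM in shM2-3, a log2 fold change of 0.39 (SE 0.10). The ratio of AIMP1 to AIMP2 RPKM was 1.62 in each shCtl library and 0.983 and 0.896 in the shM2-3 libraries. AIMP1 and AIMP2 share exon sequence with the neighbours TBCK and EIF2AK1, so these reads may be mixed. EEF1E1, the third scaffold gene, had a log2 fold change of -0.32 (SE 0.097), which did not pass without shCtl replicate 1 (-0.21) or without shM2-3 replicate 2.

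**Figure D3:**
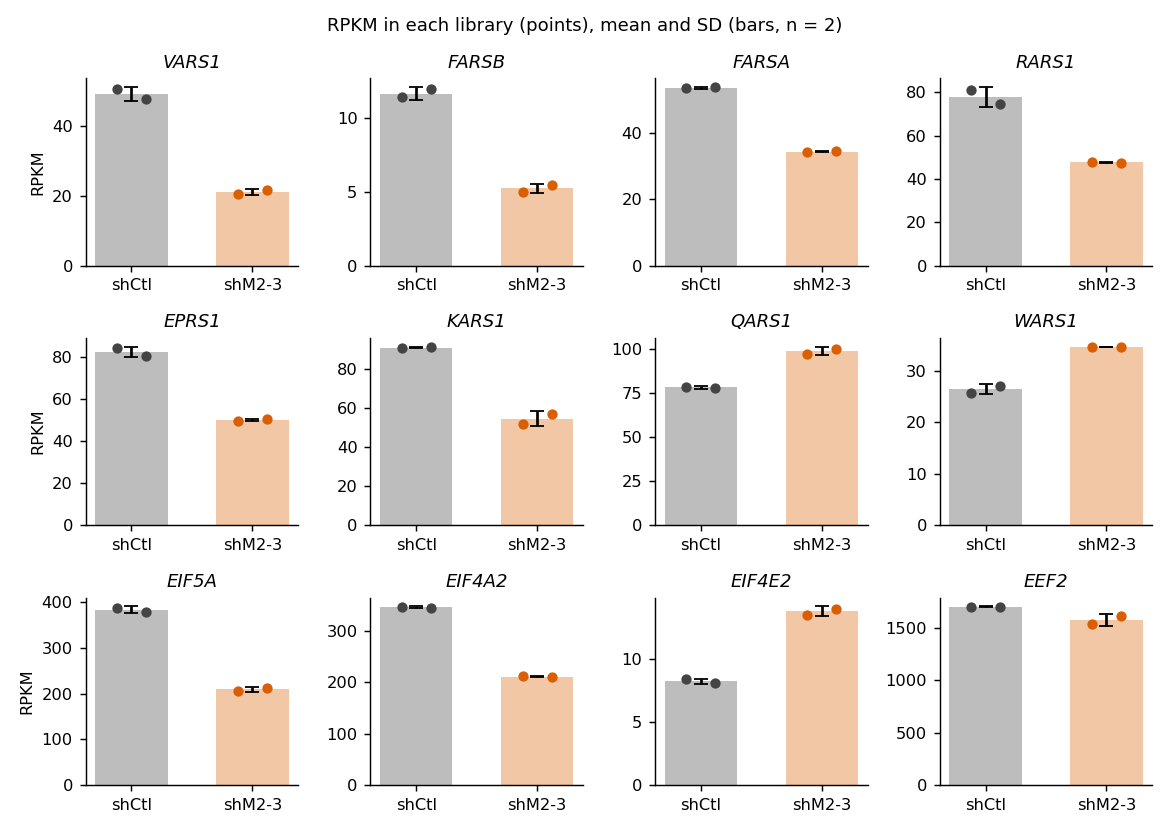
RPKM of 12 synthetase and factor genes in each library (points), with the mean (bar height) and SD (error bar) of the shCtl and shM2-3 groups, n = 2 each. VARS1, FARSB, FARSA, RARS1, EPRS1, KARS1, EIF5A and EIF4A2 are lower and QARS1, WARS1 and EIF4E2 higher in both shM2-3 libraries than in both controls. EEF2 is also lower in both, but by less (log2 fold change -0.05), and did not pass.

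Mitochondrial synthetases, which are encoded in the nucleus, showed the lowest median of the larger classes. Of the 17 tested, 10 were lower, 2 higher and 5 did not pass, with a median log2 fold change of -0.63. The shares of all genes tested were 36.4% lower and 36.3% higher. All 10 lower enzymes fell by at least 1.5-fold, against 18.9% of all genes. With edgeR or DESeq2, 0 reached the 2-fold limit in either direction, although CARS2, VARS2 and NARS2 did in some other fits. At that limit edgeR gave 8.93% of all genes lower and 9.24% higher. At an unadjusted edgeR p under 0.05 the counts were likewise 10 lower and 2 higher. CARS2 (cysteine) was 4.70 and 5.76 RPKM in shCtl and 2.64 and 2.39 RPKM in shM2-3, a log2 fold change of -0.99 (SE 0.13), and its exons overlap ING1. VARS2 (valine) was 10.3 and 11.1 RPKM in shCtl and 5.10 and 5.33 RPKM in shM2-3, a log2 fold change of -0.97 (SE 0.080). NARS2, YARS2, MARS2 and EARS2 (asparagine, tyrosine, methionine and glutamate) fell by 0.95, 0.82, 0.74 and 0.68 on the log2 scale. IARS2, TARS2 and SARS2 (isoleucine, threonine and serine) each fell by 0.63. HARS2 and PARS2 (histidine and proline) had log2 fold changes of 0.26 and 0.44. PARS2, at 2.17 to 2.99 RPKM, did not pass in DESeq2 or without any of the 4 libraries, and HARS2 did not pass in limma or without shM2-3 replicate 1. AARS2, FARS2, LARS2, RARS2 and WARS2 had log2 fold changes from -0.12 to 0.13.

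Both compartments were compared for the 14 amino acids whose cytosolic and mitochondrial enzymes have matching symbols, as the mitochondrial share of the summed RPKM. Phenylalanine, glutamate and proline, with enzymes under unlike symbols, were left out. This share was lower in both shM2-3 libraries for 8 (CARS2, IARS2, MARS2, NARS2, SARS2, TARS2, WARS2 and YARS2). It was higher in both for 4 (among them LARS2, RARS2 and VARS2) and overlapped for AARS2 and HARS2. Such separation is common with 2 libraries per group, as RPKM values of the groups overlapped for only 13 of the 99 tested genes. A share also moves with the cytosolic partner. WARS2 (-0.11) did not pass while WARS1 rose, and VARS2 fell, but VARS1 fell more. For isoleucine, IARS2 made up 62.9% and 63.0% of the summed RPKM in shCtl and 53.1% and 53.5% in shM2-3. For leucine the order was the opposite, LARS2 making up 8.79% and 8.89% in shCtl and 12.7% and 13.2% in shM2-3, since LARS1 fell while LARS2 (0.03) did not pass. The factors of mitochondrial translation outside the rule (14 genes) gave 5 lower and 2 higher, against 36.4% and 36.3% of all genes tested. The count of lower genes was thus near the share over all genes, and the median was -0.16. MTIF2, the mitochondrial initiation factor, and TUFM, the mitochondrial elongation factor Tu, fell by 0.99 and 0.83 on the log2 scale. GATB and GATC, subunits of the enzyme that makes mitochondrial glutamine tRNA from the product of EARS2, fell by 0.61 and 0.22, while the third subunit gene QRSL1 (-0.10) did not pass.

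Promoters of the synthetases were searched for TGATGNAA, the core of the element bound by ATF4 with a C/EBP partner, for CACGTG, the E-box bound by MYC, and for GGAATG, the core bound by the TEAD partners of YAP1. Each was sought on both strands, over 250 bases before and 50 bases after the RefSeq start (GRCh38.p14), and none of the 3 patterns contains another. RefSeq promoters were at hand for 79 of the 99 tested genes, too few for a statement on all of them, but for 16 of the 20 cytosolic synthetases (those of LARS1, VARS1 and YARS1 being among the rest), 14 of the 17 mitochondrial ones and 39 of the 46 initiation factors. TGATGNAA was present in 6 of 16 cytosolic synthetase promoters (37.5%), 1 of 14 mitochondrial ones (YARS2) and 0 of 39 initiation factor promoters, against 3.67% of all 27305 promoters of this length and 1.68% of the 9571 at hand for tested genes. The 6 sites are printed because they set these genes apart within the class, each in 30 bases read 5′ to 3′ along the gene, with capitals marking the match (TTGCATCA is the same element on the other strand):
AARS1 (chr16:70289675-70289704, minus strand): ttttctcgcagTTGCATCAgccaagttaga
CARS1 (chr11:3057407-3057436, minus strand): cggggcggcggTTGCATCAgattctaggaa
IARS1 (chr9:92293692-92293721, minus strand): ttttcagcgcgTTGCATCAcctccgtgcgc
MARS1 (chr12:57488053-57488082, plus strand): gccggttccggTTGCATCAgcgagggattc
NARS1 (chr18:57621804-57621833, minus strand): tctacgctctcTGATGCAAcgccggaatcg
TARS1 (chr5:33440956-33440985, plus strand): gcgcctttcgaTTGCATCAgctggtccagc

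The 6 matches share the same 8 letters, counting both strands. Those of CARS1, MARS1 and IARS1 begin 2, 4 and 13 bases before the start, that of AARS1 begins 187 bases before it, and those of TARS1 and NARS1 begin at bases 3 and 15 of the transcript. The log2 fold changes of these 6 genes ran from -0.24 (TARS1) to 0.30 (CARS1), with a median of -0.06, against -0.48 for the 10 other cytosolic synthetases with a promoter. That difference was not tested. ATF4 itself was 134 and 139 RPKM in shCtl and 103 and 106 RPKM in shM2-3, a log2 fold change of -0.32 (SE 0.041). The list of ATF4 and genes it is known to activate (12 genes) gave 6 lower and 3 higher, against 36.4% and 36.3% of all genes tested. DDIT3 and ASNS (asparagine synthetase) were lower by 2-fold or more, with log2 fold changes of -1.28 and -1.08, whereas CHAC1, CEBPB and SESN2 were higher. CACGTG was in 1 of 16 cytosolic synthetase promoters, 3 of 14 mitochondrial ones and 10 of 39 initiation factor promoters (25.6%), against 7.43% of all promoters and 10.2% of those of tested genes. GGAATG was in 0 of 16, 2 of 14 and 3 of 39, against 14.0% and 10.9%. Median log2 fold changes were -0.18 for initiation factors with CACGTG and -0.30 for those without it, a difference that was not tested. A match is a run of letters and not a measured binding site.

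Initiation factors, taken as all genes with EIF symbols and so including eIF5A, gave 25 lower and 12 higher among the 46 tested. The shares of all genes tested were 36.4% lower and 36.3% higher. A further 9 of the 46 did not pass, and the median log2 fold change of the 46 was -0.24. The scanning and start-site factors differed among themselves. EIF1, which keeps the scanning ribosome open, was 126 and 127 RPKM in shCtl and 92.0 and 89.0 RPKM in shM2-3, a log2 fold change of -0.42 (SE 0.040). EIF5, the GTPase activator that acts at the start codon, was 17.0 and 16.0 RPKM in shCtl and 27.1 and 27.2 RPKM in shM2-3, a log2 fold change of 0.78 (SE 0.047). EIF1 and EIF5 thus changed in opposite directions, with no overlap between groups for either gene. EIF1AX rose by 0.33 on the log2 scale, and EIF5B, which joins the large subunit, had a value of -0.27 that ranged from -0.42 to -0.14 when 1 shM2-3 library was left out and did not pass in DESeq2. EIF6, which holds the large subunit apart, had a value of 0.14 and did not pass in limma.

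The eIF2 complex brings the initiator tRNA, and eIF2B reloads it with GTP. EIF2S1, the alpha subunit phosphorylated in the stress response, was 20.7 RPKM in each shCtl library and 18.7 and 18.3 RPKM in shM2-3, a log2 fold change of -0.10 (SE 0.048) that did not pass. EIF2S2 (beta) fell by 0.21, and EIF2S3 (gamma) rose with a value of 0.21, although it may share reads with its copy EIF2S3B and missed the threshold in limma with a pseudocount of 0.1. For the exchange factor, 4 of 5 subunits were lower, against 36.4% of all genes tested. EIF2B2, EIF2B4, EIF2B3 and EIF2B5 fell by 0.48, 0.46, 0.32 and 0.32 on the log2 scale, while EIF2B1 had a value of 0.10 and did not pass. The EIF2B3 call was lost without shCtl replicate 2 (-0.21). EIF2A and EIF2D, which can deliver initiator tRNA by other routes, fell by 0.33 and 0.30.

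Of the 14 subunit genes of eIF3, the scaffold on the small ribosomal subunit, 9 were lower, 4 higher and EIF3J did not pass. The shares of all genes tested were 36.4% lower and 36.3% higher. The median of the 14 was -0.35. The 9 include EIF3C and EIF3CL, copies for the same subunit whose fold changes rested on shCtl replicate 2, as given below. EIF3K was 125 and 130 RPKM in shCtl and 82.2 and 88.8 RPKM in shM2-3, a log2 fold change of -0.51 (SE 0.054). EIF3I, EIF3M, EIF3D, EIF3B and EIF3G fell by 0.33 to 0.47, and EIF3H by 0.13, a call lost without shCtl replicate 1 or shM2-3 replicate 1 (-0.11 for the latter). EIF3L, which binds EIF3K within the complex, was 118 and 115 RPKM in shCtl and 141 and 144 RPKM in shM2-3, a log2 fold change of 0.36 (SE 0.040). EIF3F, EIF3A and EIF3E had smaller values of 0.21, 0.15 and 0.13, none of which passed in limma, and EIF3A and EIF3E also did not pass without shCtl replicate 2.

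EIF3C and EIF3CL are near-identical copies on chromosome 16 whose reads cannot be separated with certainty. EIF3CL was 1.46 RPKM in shCtl replicate 1, 11.8 RPKM in shCtl replicate 2 and 1.11 and 1.02 RPKM in shM2-3. Its log2 fold change of -2.57 (SE 0.62) rested on shCtl replicate 2, and without that library it was -0.39 and did not pass. EIF3C was 1.5 and 3.56 RPKM in shCtl and 1.6 and 1.34 RPKM in shM2-3, a log2 fold change of -0.71 that was 0.04 without the same library. Summed over both copies, the counts were 22.9 and 115.6 CPM (counts scaled to the library total) in shCtl against 21.7 and 18.7 in shM2-3. On this sum shCtl replicate 1 lay close to the shM2-3 libraries. The authors filtered out ambiguous reads, per the study's methods. Reads that fit both copies may thus be missing, and the sum may fall below the true level. Neither gene passed in DESeq2.

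**Figure D4:**
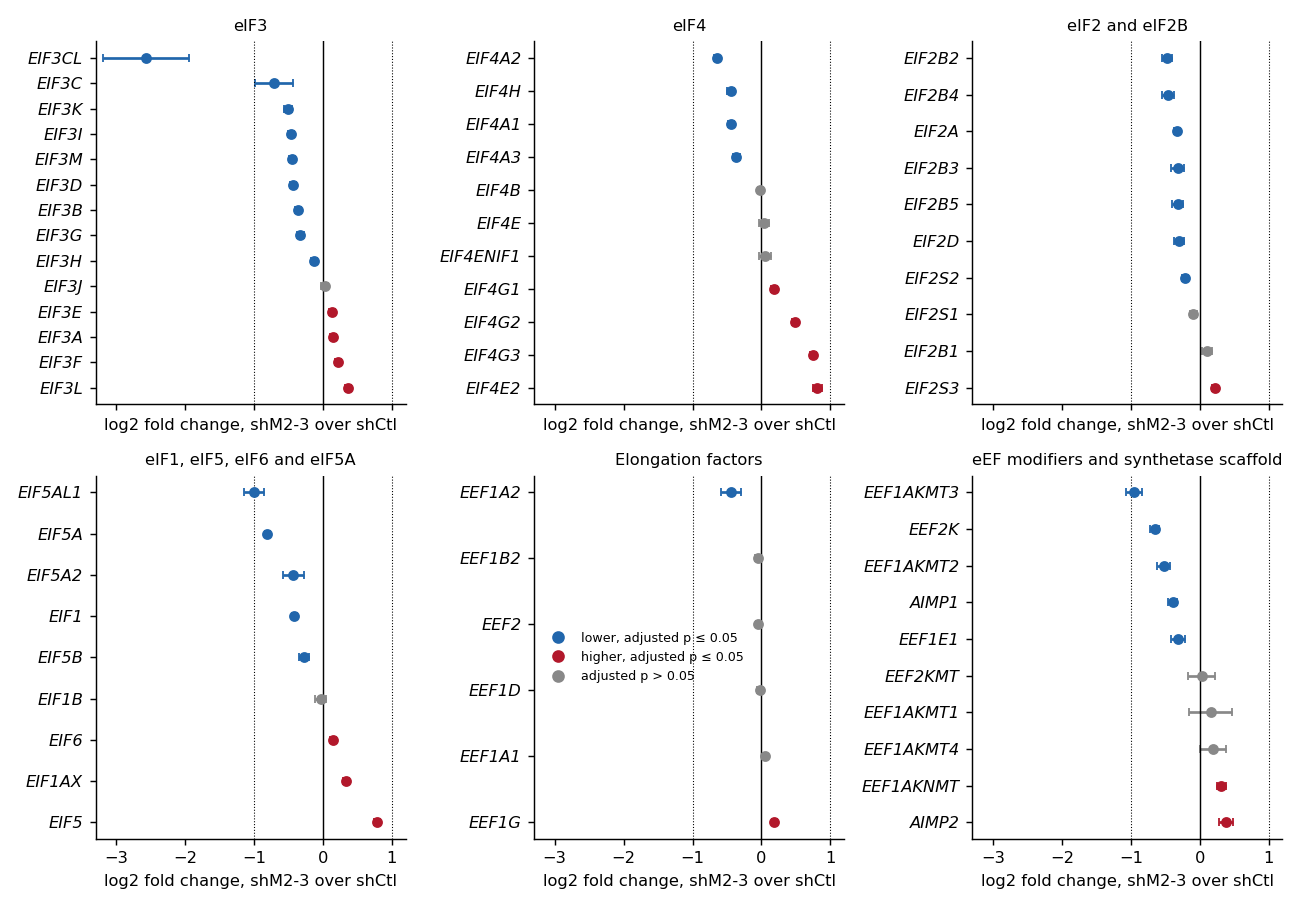
Log2 fold change (shM2-3 over shCtl, points) and SE (bars) of the initiation factors, elongation factors, elongation factor modifiers and synthetase scaffold genes tested, by complex and coloured by direction where the edgeR adjusted p was at most 0.05. EIF3CL stands alone at -2.57 with a wide SE, EIF5A lies at -0.81, EIF4E2, EIF5 and EIF4G3 lie at 0.75 to 0.81, and most elongation factors lie near 0.

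The cap-binding machinery showed a split between helicases and scaffolds. EIF4A1, the main RNA helicase of the cap complex, was 526 and 527 RPKM in shCtl and 361 and 379 RPKM in shM2-3, a log2 fold change of -0.44 (SE 0.039). EIF4A2, its close relative, was 347 and 345 RPKM in shCtl and 212 and 211 RPKM in shM2-3, a log2 fold change of -0.65 (SE 0.037). Counts of EIF4A1 and EIF4A2 may include reads of other genes annotated over their exons, small RNA genes among them. EIF4A3, the helicase of the exon junction complex, and EIF4H, a helicase cofactor, fell by 0.36 and 0.45 on the log2 scale, while the cofactor EIF4B, at 266 to 284 RPKM, had a value of -0.02 and did not pass. The scaffolds that carry the helicase went the other way. EIF4G3 was 19.1 and 18.5 RPKM in shCtl and 31.3 and 29.3 RPKM in shM2-3, a log2 fold change of 0.75 (SE 0.045). EIF4G2, a relative that does not bind eIF4E, was 115 and 110 RPKM in shCtl and 150 RPKM in each shM2-3 library, a log2 fold change of 0.48 (SE 0.039). EIF4G1 had a smaller value of 0.19 (SE 0.042), which did not pass in limma.

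Among the cap-binding proteins, EIF4E was 2.88 and 2.81 RPKM in shCtl and 2.84 and 2.73 RPKM in shM2-3 and did not pass (log2 fold change 0.04, SE 0.070). EIF4E2, a relative known mainly as a repressor of translation, was 8.37 and 8.06 RPKM in shCtl and 13.5 and 14.0 RPKM in shM2-3, a log2 fold change of 0.81 (SE 0.065). EIF4E3 lay below the filter, with 161 and 173 counts in shCtl and 34 and 23 counts in shM2-3, and was lower by 2-fold or more in the fit without a filter. EIF4E2 made up 70.4% and 69.7% of the summed RPKM of these 3 genes in shCtl and 82.1% and 83.3% in shM2-3. In counts, however, EIF4E (816 and 810) and EIF4E2 (844 and 826) were close to each other in shCtl. The size of these shares thus depends on the gene lengths used for RPKM. The eIF4E-binding proteins, which hold eIF4E away from the scaffold, lie outside the rule, and all 3 changed by more than 2-fold. EIF4EBP1 was 150 and 162 RPKM in shCtl and 62.1 and 67.1 RPKM in shM2-3, a log2 fold change of -1.21 (SE 0.057). EIF4EBP2 was 9.64 and 9.63 RPKM in shCtl and 22.2 and 21.8 RPKM in shM2-3, a log2 fold change of 1.26 (SE 0.045). The ratio of EIF4EBP1 to EIF4EBP2 RPKM was 15.6 and 16.8 in shCtl and 2.79 and 3.08 in shM2-3. EIF4EBP3 was also lower, but on few counts (90 or more in each shCtl library, 28 and 9 in shM2-3).

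**Figure D5:**
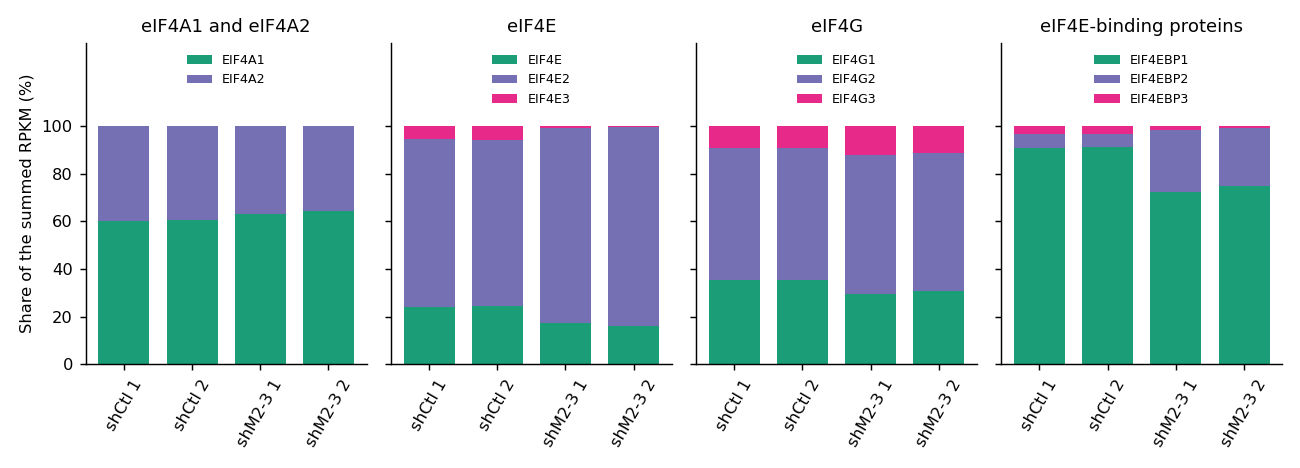
Share (%) of each gene in the summed RPKM of its family in each of the 4 libraries, for EIF4A1 and EIF4A2, the eIF4E genes, the eIF4G genes and the eIF4E-binding proteins. EIF4EBP2 goes from 5.83% and 5.43% in shCtl to 25.9% and 24.3% in shM2-3, and EIF4E2 from about 70% to 82.1% and 83.3%.

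EIF5A, which frees ribosomes stalled on difficult sequences such as runs of proline, is grouped with the initiation factors by its name only. It had the largest fall among the EIF genes with 100 RPKM or more in shCtl cells. EIF5A (chr17:7306999-7312463, plus strand) was 388 and 378 RPKM in shCtl and 205 and 213 RPKM in shM2-3, a log2 fold change of -0.81 (SE 0.040, edgeR adjusted p = 6.01e-10). EIF5AL1, a near-identical copy, was 3.22 and 3.55 RPKM in shCtl and 1.46 and 1.77 RPKM in shM2-3, and its log2 fold change of -1.0 (SE 0.15) may hold reads of EIF5A. It fell short of 2-fold without shCtl replicate 2 (-0.94) and without shM2-3 replicate 1 (-0.86). EIF5A2, at 1.12 to 1.76 RPKM, had a value of -0.43 that did not pass in DESeq2, without shCtl replicate 1 or without shM2-3 replicate 2. DHPS, the enzyme that starts the hypusine modification of eIF5A, fell by 0.46 on the log2 scale.

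The core elongation factors named EEF1 or EEF2, a class without eIF5A, included the 3 most abundant genes of the set. The median log2 fold change of the 6 tested was -0.03. EEF1A1, which delivers charged tRNAs, was 4101 and 3998 RPKM in shCtl and 4001 and 4041 RPKM in shM2-3, a log2 fold change of 0.06 (SE 0.026, edgeR adjusted p = 0.070). EEF2, which moves the ribosome along, was 1707 and 1705 RPKM in shCtl and 1538 and 1617 RPKM in shM2-3, a log2 fold change of -0.05 (SE 0.032, edgeR adjusted p = 0.21), which passed in 3 of the 10 alternative fits. The exchange factor subunits EEF1B2 and EEF1D had values of -0.05 and -0.02 and did not pass. EEF1G, a further subunit, was 1288 and 1290 RPKM in shCtl and 1377 and 1430 RPKM in shM2-3, a log2 fold change of 0.19 (SE 0.034) that did not pass in limma. EEF1A2, the isoform of muscle and neurons, was at 3.70 to 5.78 RPKM and had a value of -0.44, which did not pass in DESeq2, without shCtl replicate 1 or without shM2-3 replicate 1.

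Enzymes that modify the elongation factors gave 3 lower, 1 higher and 3 that did not pass among 7 tested. Over all genes tested the shares were 36.4% lower and 36.3% higher. EEF2K, the kinase that inhibits eEF2, was 9.31 and 9.51 RPKM in shCtl and 5.55 and 5.87 RPKM in shM2-3, a log2 fold change of -0.66 (SE 0.060). EEF1AKMT3 and EEF1AKMT2, which methylate eEF1A, fell by 0.95 and 0.52 on the log2 scale, and EEF1AKNMT rose with a value of 0.31.

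Regulators and partners outside the rule (32 genes) gave 14 lower and 11 higher, against 36.4% and 36.3% of all genes tested. A further 7 did not pass, and the median of the 32 was -0.01. Regulators past the 2-fold limit were EIF4EBP1, EIF4EBP3 and PPP1R15A (lower) and EIF4EBP2 and GSPT2 (higher). These were 3 and 2 of the 32 genes, against 8.93% and 9.24% of all genes tested. GSPT2 lay at the limit (log2 fold change 1.0) and fell short of it in 6 of the 10 alternative fits, with 0.93 without shCtl replicate 1 and 0.96 without shM2-3 replicate 2. PPP1R15A, the phosphatase subunit that reverses phosphorylation of eIF2, was 64.0 and 63.0 RPKM in shCtl and 24.5 and 26.4 RPKM in shM2-3, a log2 fold change of -1.25 (SE 0.051). EIF2AK3 (PERK), a kinase that places this phosphate, had a value of 0.83, whereas EIF2AK4 (GCN2), the kinase that senses uncharged tRNA, fell by 0.32. DDX3X, a helicase that aids scanning, rose with a value of 0.96, and PABPC1, the poly(A)-binding protein, was 971 and 957 RPKM in shCtl and 660 and 671 RPKM in shM2-3, a fall of 0.47 on the log2 scale.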

How the data were processed

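RNA-seq libraries of ES-2 cells were compared between shCtl (n = 2) and shM2-3 (n = 2), each cultured independently. The authors aligned reads to hg38 with HISAT2 2.0.4 and quantified genes in Partek 7.18, per the labels. The authors deposited estimated counts per gene (42.4% to 48.6% of values whole), which were rounded here, and RPKM values. Genes with RPKM above 1 in at least 1 library (12157 of 19626) were tested with edgeR 4.0.16 in R 4.3.3 (TMM scaling, quasi-likelihood test, Benjamini-Hochberg adjustment), taking a fold change of at least 2 and an adjusted p of at most 0.05 as the study's limits. The common biological coefficient of variation was 0.0485. Replicates differed by more than sampling noise (chi-square over degrees of freedom 3.46 in shCtl and 3.98 in shM2-3), and p-values measure the spread between these 4 libraries only. The script was tested on simulated data. Alternatives used DESeq2 1.42.0, limma 3.58.1 on log2(RPKM + 0.1) and log2(RPKM + 1), total-count scaling, no filter, the replicate number as a block, and fits with 1 library omitted. Fold changes are shM2-3 over shCtl, and "did not pass" means an adjusted p above 0.05. Levels are compared between genes only as RPKM, which depends on the gene lengths used in the deposited values. The libraries were not strand-specific, per the study's methods, so reads of overlapping genes on opposite strands cannot be told apart. Positions are from GENCODE 44.

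The genes and lists were chosen with earlier results of these data known. Named genes were those past 2-fold, the lowest and highest of each class and a fixed set of core factors, and the others named were chosen after their values were seen. Class counts and medians are descriptions without a test. Some genes counted in the classes are not reported here by name.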

Additional observations from a re-analysis of the deposited data

How the results depend on the processing

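Of the 74 genes of the set past the adjusted p, 56 passed in all 10 alternative fits and 18 lost it in at least 1, and EIF3C also turned direction (0.04 without shCtl replicate 2). Genes lower by 2-fold numbered 5, but 3 in limma on log2(RPKM + 1), 8 without the filter, 23 at a 1.5-fold limit and 3 to 8 with a library left out; VARS1 and FARSB were among them each time. The lowest count came without shCtl replicate 2, which lost EIF3CL and EIF5AL1, and the highest without shCtl replicate 1, which lost 1 of the 5 and added CARS2, VARS2, NARS2 and EIF3C. Genes higher by 2-fold numbered 0 in every fit and 3 at a 1.5-fold limit. Genes higher at the adjusted p alone numbered 21, but 12 and 13 in limma with pseudocounts of 0.1 and 1. Those scales shifted the median of all genes by -0.066 and -0.063, and total-count scaling by -0.035.

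Class medians took the following values, those with a library left out being the lowest and highest of 4 fits. For cytosolic synthetases the median was -0.37 and -0.36 in limma (pseudocounts 0.1 and 1), -0.33 without the filter and -0.34 with total counts. For mitochondrial synthetases it was -0.69 in limma with 0.1, and -0.65 to -0.55 with a library left out. For initiation factors it was -0.31, -0.29, -0.27 and -0.28 in the same order of 4 settings, and -0.23 to -0.18 with a library left out. For elongation factors it was -0.10 in both limma fits and -0.081 to 0.0198 with a library left out. For all genes of the set it was -0.31, -0.30, -0.27 and -0.28, and -0.25 to -0.20 with a library left out. In limma with 0.1 and 1 the median of eIF1, eIF5 and eIF6 genes turned to -0.0098 and -0.0089, and that of eIF4 factors to -0.0297 and -0.0227. The eIF3 median was -0.26 without shCtl replicate 2, that of eIF2 genes -0.16 without shM2-3 replicate 1, and that of eIF5A genes -0.87 and -0.75 in limma. The causes were not tested beyond the shifts above.

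The replicate numbers did not pair the libraries: deviations of same-numbered libraries correlated at -0.00813 over 12157 genes. With the replicate block, 5 genes were lower by 2-fold, and 52 were lower and 21 higher at the adjusted p alone. Each group held 2 libraries, and EIF3C passed in 3, HARS1 in 4, PARS2 in 5 and EIF3CL in 6 of the 10 fits.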
